A study of Mus musculus with 6 samples.

Results

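The genes encoded by mitochondrial DNA were taken as every row of the count files whose symbol in the mouse annotation starts with mt-, which gave 37 of 53801 genes. They comprise 13 mRNA genes, 2 ribosomal RNA (rRNA) genes and 22 transfer RNA (tRNA) genes, with 28 genes on the forward strand of the mitochondrial reference sequence and 9 on the reverse strand. Bulk RNA-seq had been run on the maxillary prominence, the facial outgrowth that forms the upper jaw and palatal shelves, dissected from mouse embryos of strain C57BL/6 (C57BL/6J in the study's methods) at embryonic day 12.5. The 3 wild-type (WT) samples were compared with 3 Wnt1cre; Rosa26Dlx2/- samples (Dlx2OE), in which Wnt1-driven Cre removes a stop cassette in the neural crest lineage so that Flag-tagged Dlx2 is made from a CAG promoter at the Rosa26 locus. Only crest-derived cells can switch the transgene on, whereas the dissected tissue also holds other cells, such as epithelium, vessels and blood, so each value is an average over all of them. The labels describe 3 independent RNA samples per genotype from 7 littermates and the study's methods name 6 littermates, so the embryos behind each sample are not fully known and the p-values measure the spread between these samples.

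Mitochondrial DNA is a small circular genome, inherited from the mother and present in many copies per cell. Its mRNAs encode subunits of respiratory chain complexes I, III and IV and of the ATP synthase (complex V), and its rRNAs and tRNAs serve the ribosome inside the organelle. Both strands are transcribed as long precursors, from which the tRNAs are cut out so that the mRNAs and rRNAs between them are released. The genes lie end to end with almost no spacer, apart from a control region without genes that holds the origins of transcription. Copies of mitochondrial DNA have also been inserted into the nuclear chromosomes during evolution, and reads that align equally well to both places are left out by standard gene counting.

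Several sequences set what could be counted, and they are shown 5′ to 3′ on the sense strand from the GENCODE transcripts (release M21, build mm10). The first pair comprises the tRNA gene with counts, mt-Tp (proline tRNA, chrM:15356-15422, reverse strand), and mt-Atp8 (complex V, chrM:7766-7969, forward strand), in which capitals mark the 43 bases that are also the start of mt-Atp6.
mt-Tp: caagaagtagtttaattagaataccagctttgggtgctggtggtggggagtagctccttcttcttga
mt-Atp8: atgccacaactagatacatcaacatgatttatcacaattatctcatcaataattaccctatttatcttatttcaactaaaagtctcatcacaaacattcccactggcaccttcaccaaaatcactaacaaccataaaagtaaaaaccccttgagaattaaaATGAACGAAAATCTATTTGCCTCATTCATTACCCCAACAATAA

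The next sequences show how near the nuclear copies come to the mitochondrial genes. The first 60 bases of mt-Nd3 (complex I, chrM:9459-9518, forward strand) are given above those of Gm28438, its copy on chromosome 1 (chr1:24613060-24613119, reverse strand), with the base that differs in capitals.
mt-Nd3: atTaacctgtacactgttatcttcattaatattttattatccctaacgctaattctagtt
Gm28438: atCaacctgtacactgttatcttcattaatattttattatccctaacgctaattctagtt

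The first 120 bases of mt-Co2 (complex IV, chrM:7013-7132, forward strand) are given with those of Gm28661 on chromosome 1 (chr1:24615446-24615565, reverse strand) and Gm13341 on chromosome 2 (chr2:22587843-22587962, reverse strand), with capitals at the positions where Gm13341 differs from mt-Co2.
mt-Co2: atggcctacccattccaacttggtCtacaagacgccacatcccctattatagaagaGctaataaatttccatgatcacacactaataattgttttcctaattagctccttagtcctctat
Gm28661: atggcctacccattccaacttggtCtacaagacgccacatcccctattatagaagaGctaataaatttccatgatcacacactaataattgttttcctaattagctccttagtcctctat
Gm13341: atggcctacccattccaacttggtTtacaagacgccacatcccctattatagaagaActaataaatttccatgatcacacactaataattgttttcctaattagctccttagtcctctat

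The libraries held 30332754 to 31308813 counts on genes in WT and 26155500 to 30570784 in Dlx2OE, so that 3 counts, taken as the floor of detection for counting error alone, equal 0.0955 to 0.111 CPM (counts scaled to the same library size). Dlx2 itself had 1255, 1056 and 1409 counts in the WT libraries and 3521, 4102 and 3336 in the Dlx2OE libraries, which fits the labels. Read pairs on no annotated gene made up 5.03% to 5.43% of the pairs listed in WT and 5.75%, 7.82% and 14.7% in Dlx2OE, and Dlx2OE replicate 3 stood apart. Of the 37 genes, 16 had at least 1 count and 21, all of them tRNA genes, had none in any of the 6 libraries. After the filter on low counts, 15 genes were tested: 12 mRNAs, both rRNAs and mt-Tp.

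All 15 tested genes were fitted lower in Dlx2OE than in WT, and 5 of them passed the edgeR quasi-likelihood test at an adjusted p under 0.05 (Benjamini-Hochberg over 17514 genes). These were the complex IV mRNAs mt-Co2 and mt-Co3, the complex V mRNA mt-Atp6, and the complex I mRNAs mt-Nd4l and mt-Nd4. Of all genes tested, 3.46% passed in that direction and 2.99% passed as higher, and no mitochondrial gene was higher. With a log2 fold change below -1 required as well, 4 of the 15 remained, against 1.62% of all genes tested. Each of these 4 has a nuclear copy on chromosome 1 over nearly the whole gene, and mt-Nd4 has such a copy over part of it. Of the 5 tested mRNAs without such a copy, 0 passed. The 3 Dlx2OE libraries lay below the 3 WT libraries without overlap for 12 of the 15 genes, every tested mRNA, against 17.3% of all genes tested. These genes include mt-Nd3, whose direction is not settled by these counts, as described with its copy below. Before adjustment 12 of the 15 had p under 0.05, against 29.5% of all genes tested in either direction.

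The median log2 fold change was -0.74 over the 12 tested mRNAs and -0.77 over the 2 rRNAs, against 0.003 over all genes tested. The single mRNA of the reverse strand, mt-Nd6, was fitted at -0.66 and the 11 tested mRNAs of the forward strand had a median of -0.81. This order turned among genes without a copy on chromosome 1 (described with the copies), where the 4 tested forward-strand mRNAs had a median of -0.60. DESeq2 called 14 of the 15 genes lower, all but mt-Tp, against 7.21% of the genes to which it gave an adjusted p. The count of calls also moved with single libraries. With WT replicate 1, WT replicate 2 or Dlx2OE replicate 2 left out, mt-Co2 alone passed, with Dlx2OE replicate 3 left out 3 genes passed, and with WT replicate 3 left out 11 passed. The calls over all genes moved in the same way, from 1130 of 17514 with all libraries to 180 of 18159, 79 of 18056, 213 of 17986 and 315 of 17902 in the first 4 of these fits and 2091 of 18171 in the last.

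**Figure D1:**
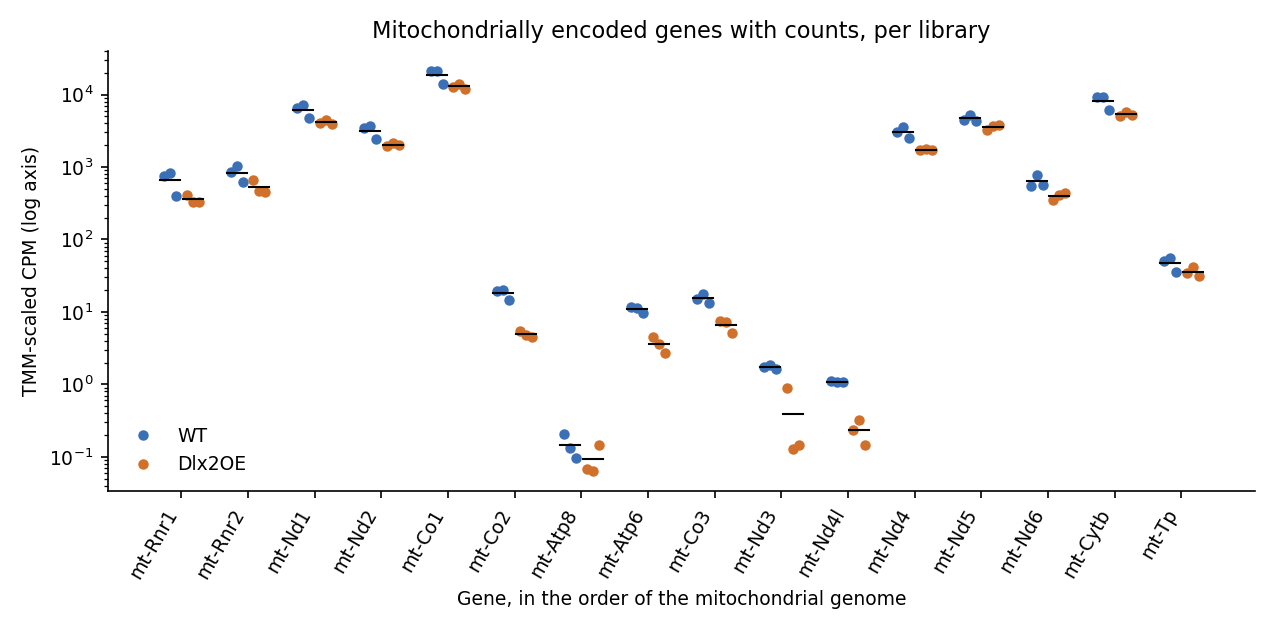
Levels of the 16 mitochondrial genes with counts, in TMM-scaled CPM on a log axis, in genome order. Points are the 3 WT and 3 Dlx2OE libraries and bars are group means. For every tested mRNA the Dlx2OE points lie below the WT points, and mt-Co2, mt-Atp8, mt-Atp6, mt-Co3, mt-Nd3 and mt-Nd4l lie far below the other mRNAs in both groups. All of these low mRNAs but mt-Atp8 have a chromosome 1 copy over nearly the whole gene, so their points show the reads that could be counted.

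As a share of all counts on genes, mitochondrial RNA made up 4.70%, 5.10% and 3.68% of the WT libraries and 3.05%, 3.40% and 3.11% of the Dlx2OE libraries. The groups did not overlap, although WT replicate 3 was closer to the Dlx2OE libraries than to the other WT libraries. The means were 4.49% ± 0.731 (SD, n = 3) and 3.19% ± 0.185 (SD, n = 3), with an exact two-sided permutation p of 0.1, the smallest that 3 against 3 samples allow. The difference of the log2 shares was -0.48, and it stayed between -0.62 and -0.39 when each library was left out in turn.

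Almost all of these counts were on mRNA genes, at 4.34% ± 0.693 (SD, n = 3) of gene counts in the WT libraries and 3.09% ± 0.194 (SD, n = 3) in Dlx2OE, with exact permutation p = 0.1. The RNA had been purified on poly-T beads and most tRNA genes had no counts. The split by class is therefore not the make-up of mitochondrial RNA in the tissue. The rRNA share was 0.144% ± 0.0375 (SD, n = 3) against 0.0901% ± 0.0154 (SD, n = 3), and here WT replicate 3 fell inside the Dlx2OE range (exact permutation p = 0.2). The tRNA share, which is mt-Tp alone, was 0.00460% ± 0.000822 (SD, n = 3) against 0.00366% ± 0.000529 (SD, n = 3), also with overlap (exact permutation p = 0.2).

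**Figure D2:**
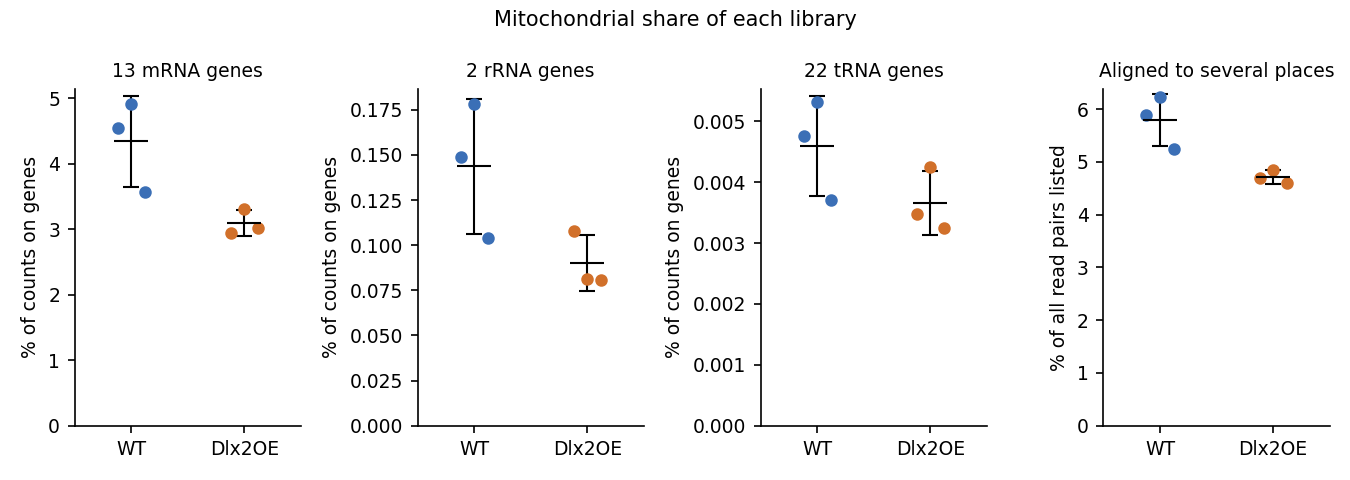
Share of each library taken by mitochondrial mRNA, rRNA and tRNA genes, as a percent of the counts on genes, and the share of read pairs that aligned to several places, as a percent of all pairs listed. Points are libraries, and bars are the mean and SD of 3 libraries per group. The groups are apart for mRNA and for pairs aligned to several places, and overlap for rRNA and tRNA.

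Other measures of the libraries moved with the groups. Summed CPM of 10 erythroid markers was 3326 to 4442 in WT and 2006 to 2597 in Dlx2OE, with 3 of the 10 passing the test as lower. That of 6 macrophage markers was 52.9 to 57.3 against 26.3 to 36.1, with 2 of 6 lower. That of 8 neural crest mesenchyme markers was 1288 to 1613 against 1817 to 2267, with 2 of 8 higher, and all 8 of these markers of the labelled tissue passed the filter on low counts. Over all genes tested, 3.46% passed as lower and 2.99% as higher. The sums overlapped between the groups for epithelium (2 of 7 passing as lower), endothelium (1 of 5 lower), skeletal muscle (0 of 7) and neurons (0 of 6). Within them single libraries stood apart, with neuron sums of 61.2, 294 and 162 in WT and 182, 437 and 872.5 in Dlx2OE, and an epithelial sum of 1540 in Dlx2OE replicate 1 against 484 and 478 in the other Dlx2OE libraries. No marker of any list was at or under the floor in all libraries. Read pairs aligned to several places were 5.80% ± 0.502 (SD, n = 3) of pairs in WT and 4.71% ± 0.128 (SD, n = 3) in Dlx2OE, again without overlap (exact permutation p = 0.1). The part of these measures in the lower mitochondrial values was not tested. In bulk samples, fewer cells rich in mitochondria and less mitochondrial RNA per cell cannot be told apart.

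Per kilobase of gene length, the WT levels ran from 12160 CPM per kb ± 2690 (SD, n = 3) for mt-Co1 down to 0.709 ± 0.271 (SD, n = 3) for mt-Atp8. After mt-Co1 came mt-Cytb at 7212, mt-Nd1 at 6390, mt-Nd2 at 3071, mt-Nd5 at 2569, mt-Nd4 at 2209 and mt-Nd6 at 1220 CPM per kb. These were followed by mt-Tp at 707, mt-Rnr1 at 689 and mt-Rnr2 at 522. The remaining mRNAs formed a separate low group, with mt-Co2 at 26.3, mt-Co3 at 19.8, mt-Atp6 at 16.01, mt-Nd3 at 4.99 and mt-Nd4l at 3.68 CPM per kb. All 5 have a nuclear copy on chromosome 1 over nearly the whole gene, and reads that align equally well to both are left out. Their places in this order are those of the reads that could be counted and do not measure these RNAs. mt-Nd4 and mt-Co1 have such a copy over part of the gene, so their values may also be too low. Within this order the ranges of mean ± SD overlapped between mt-Cytb and mt-Nd1, along mt-Nd2, mt-Nd5 and mt-Nd4, along mt-Tp, mt-Rnr1 and mt-Rnr2, and along mt-Co2, mt-Co3 and mt-Atp6. The mRNA of these libraries had been purified on poly-T beads, so the place of the rRNAs in this order is that of the rRNA that passed this selection.

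Complex I, the NADH dehydrogenase that feeds electrons into the chain, has 7 of its subunits encoded here. mt-Nd4 is a proton-pumping membrane subunit of it, at chrM:10167-11544. It stood at 3063, 3540 and 2529 CPM in WT and at 1708, 1757 and 1737 CPM in Dlx2OE, so that the Dlx2OE libraries lay close together and well under the WT range. It fell by 0.81 on the log2 scale (SE 0.172, edgeR adjusted p = 0.0367), which is 43.04% lower, but it passed in 1 of the 6 fits with a library left out. mt-Nd4l, which lies directly before it and encodes a small membrane subunit, was counted 33, 32 and 34 times in the WT libraries, against 7, 10 and 4 times in the Dlx2OE libraries. The fitted difference was -2.19 on the log2 scale (SE 0.360, edgeR adjusted p = 0.0194), and it passed in 2 of those 6 fits. mt-Nd4l has a chromosome 1 copy over nearly the whole gene and mt-Nd4 over part of it, described below. The changes of both genes are those of the reads that could be counted.

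The other complex I mRNAs did not pass. mt-Nd1, whose product lies where the membrane arm meets the peripheral arm, was at 6512, 7131 and 4702 CPM in WT and 4078, 4468 and 3870 CPM in Dlx2OE (log2 fold change -0.56, SE 0.209, edgeR adjusted p = 0.125). mt-Nd2, a proton-pumping subunit, was at 3448, 3639 and 2475 CPM against 1939, 2172 and 2024 CPM (-0.64, SE 0.190, edgeR adjusted p = 0.0777). Both genes were separated between the groups, with WT replicate 3 the lowest WT library. mt-Nd5, the pumping subunit at the far end of the membrane arm, was at 4468, 5293 and 4295 CPM against 3286, 3731 and 3829 CPM, the smallest difference among the tested mRNAs (-0.37, SE 0.174, edgeR adjusted p = 0.193).

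mt-Nd6, at chrM:13552-14070, is the mRNA of the reverse strand. It was at 540, 787 and 573 CPM in WT and at 347, 417 and 438 CPM in Dlx2OE, with no overlap (-0.66, SE 0.176, edgeR adjusted p = 0.0604). The counting did not use strand. Among 34 genes lying wholly inside exons of an expressed gene on the opposite strand, 0 had a count, as happens when every such pair is ambiguous. Reads over mt-Nd6 can therefore come from its own mRNA or from the forward-strand precursor across it. mt-Nd3 had 51, 56 and 50 counts in the WT libraries and 26, 4 and 4 in Dlx2OE, and its values are taken up with its nuclear copy below (-2.16, SE 0.644, edgeR adjusted p = 0.0790).

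For complex III, the cytochrome bc1 complex that passes electrons on to cytochrome c, the mitochondrial genome encodes cytochrome b. mt-Cytb was at 9200, 9401 and 6152 CPM in WT and 5039, 5721 and 5184 CPM in Dlx2OE. All Dlx2OE values lay below the WT values, but the difference did not pass (-0.63, SE 0.220, edgeR adjusted p = 0.109).

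Complex IV, cytochrome c oxidase, hands electrons to oxygen, and its 3 core subunits are encoded here. mt-Co1, the catalytic subunit and the mitochondrial mRNA with the most counts, was at 21340, 21040 and 14000 CPM in WT and 12830, 13970 and 12140 CPM in Dlx2OE. The highest Dlx2OE library almost reached the lowest WT library, and the difference did not pass (-0.53, SE 0.241, edgeR adjusted p = 0.182). mt-Co2, which takes up electrons from cytochrome c, was at 19.3, 20.2 and 14.5 CPM in WT and 5.50, 4.84 and 4.58 CPM in Dlx2OE. It fell by 1.85 on the log2 scale (SE 0.187, edgeR adjusted p = 0.00541), the smallest adjusted p among the 15 genes, and it passed in all 6 fits with a library left out. mt-Co3 was at 15.2, 17.9 and 13.4 CPM against 7.46, 7.32 and 5.17 CPM (-1.22, SE 0.203, edgeR adjusted p = 0.0202), and it passed in 3 of those 6 fits. Both mt-Co2 and mt-Co3 have a chromosome 1 copy over nearly the whole gene, described below. Their changes are those of the reads that could be counted, and what set these reads apart was not determined. The tested mRNAs without such a copy were fitted at -0.66 to -0.37.

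Complex V makes ATP from the proton gradient, and mt-Atp6 and mt-Atp8 encode subunits of its membrane part. mt-Atp6 was counted 338, 347 and 301 times in the WT libraries and 132, 114 and 73 times in the Dlx2OE libraries, without overlap. It fell by 1.60 on the log2 scale (SE 0.228, edgeR adjusted p = 0.0128), passing in 3 of the 6 fits with a library left out. mt-Atp6 also has a chromosome 1 copy over nearly the whole gene, so this change is that of the reads that could be counted. mt-Atp8 had 6, 4 and 3 counts in the WT libraries and 2, 2 and 4 in Dlx2OE, at or near the floor of 3 counts, and it was not tested. A stretch of 162 bases is free of any other gene around mt-Atp8, little more than the 150 bases of a single read, and its last 43 bases are shared with mt-Atp6, so few read pairs can fall on it alone. Unannotated sequence, such as that between the chromosome 1 copies of mt-Atp6 and mt-Co2, was not searched for a copy of it, and the cause of its low counts was not tested.

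**Figure D3:**
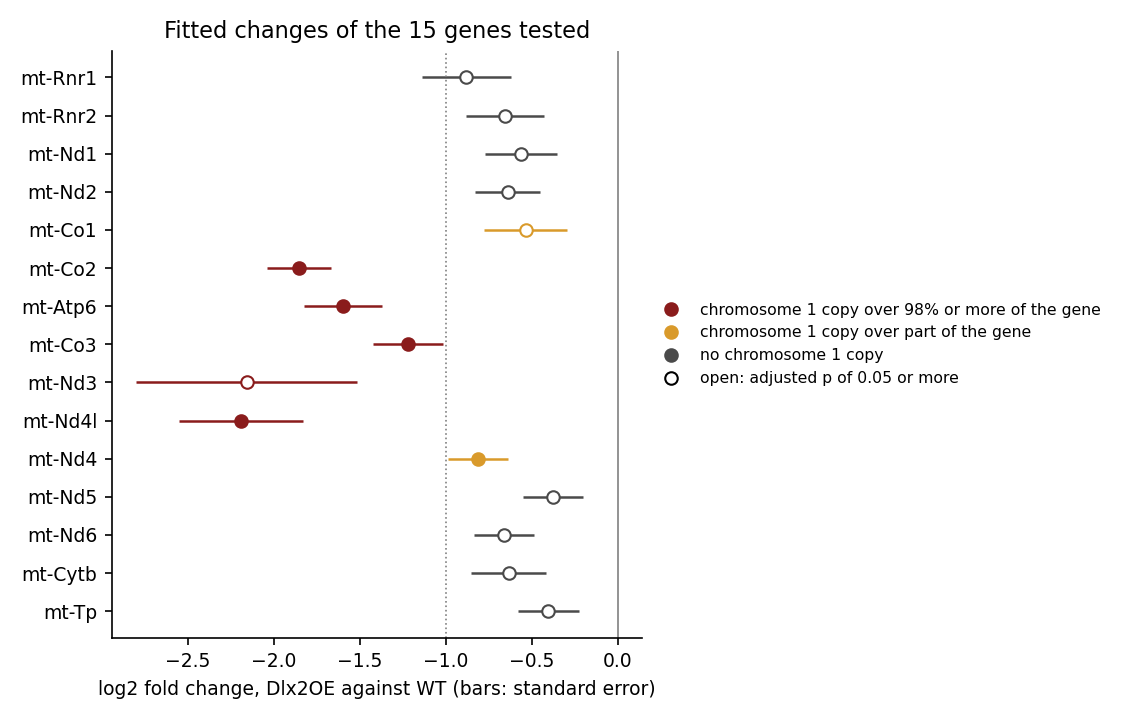
Fitted log2 fold changes of the 15 tested genes, Dlx2OE against WT, with bars for 1 standard error; filled points have an edgeR adjusted p under 0.05. All points lie below 0, and the 5 genes with a chromosome 1 copy over 98% or more of their length hold the 5 lowest values, from -2.19 to -1.22.

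The rRNAs are the small (12S, mt-Rnr1) and large (16S, mt-Rnr2) RNAs of the mitochondrial ribosome. mt-Rnr1 was at 747, 829 and 398 CPM in WT and 410, 331 and 331 CPM in Dlx2OE, and WT replicate 3 lay below Dlx2OE replicate 1 (-0.88, SE 0.260, edgeR adjusted p = 0.0772). mt-Rnr2 was at 847, 1018 and 614 CPM against 662, 463 and 450 CPM, with the same libraries overlapping (-0.65, SE 0.227, edgeR adjusted p = 0.108). Neither rRNA passed in edgeR, and both did in DESeq2 (adjusted p = 0.00264 and 0.0193).

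Of the 22 tRNA genes, 14 lie on the forward and 8 on the reverse strand, and they are 59 to 75 bases long. All 14 of the forward strand and 7 of the reverse strand had 0 counts in every library. For 20 of these 21, between 58 and 105 bases around the gene are free of any other gene, less than the 150 bases of a read. A full-length read over such a tRNA also overlaps a neighbouring gene and is set aside as ambiguous, so these zeros do not measure the tRNAs. The remaining gene, mt-Tf, starts at the first base of the reference sequence, which is cut open there. On that reference 69 bases are free of any other gene, and a full-length read aligned over mt-Tf also overlaps mt-Rnr1. Its zeros therefore do not measure it either. On the circular genome it borders the control region as mt-Tp does, and whether reads across the cut were lost was not tested. mt-Tp borders the control region on one side, and it had 1492, 1661 and 1124 counts in the WT libraries and 1025, 1302 and 850 in Dlx2OE. In CPM these were 51.0, 55.1 and 36.1 against 34.6, 41.5 and 31.4, so the groups overlapped (-0.40, SE 0.177, edgeR adjusted p = 0.174). A pair that covers the control region and reaches into mt-Tp by any length counts for it, so these counts are not counts of the proline tRNA alone.

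The chromosome 1 copies bear on the genes with the largest changes. A search of the 13 mRNAs, 2 rRNAs and 22 tRNAs against all 141767 annotated transcripts found 11 nuclear copies with at least 95% identity over at least 200 bases. Of these, 7 lie in a row on chromosome 1, reverse strand, between 24611535 and 24616197 (mm10), all annotated as unprocessed pseudogenes. They cover 98.99% to 99.87% of mt-Nd4l, mt-Nd3, mt-Co3, mt-Atp6 and mt-Co2, the first 876 bases of mt-Nd4 and the last 483 bases of mt-Co1. Outside of single substitutions, T3C between mt-Nd3 and Gm28438 and A1066T between mt-Co1 and Gm29216 (positions from 1 at the first base of the mitochondrial gene, whose base stands first), their aligned bases were identical. The 5 mRNAs covered over nearly their whole length were counted at 1.09 to 18.0 CPM in WT, whereas the 7 other tested mRNAs were counted at 633 to 18790 CPM.

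The mRNAs therefore differed in how much of them could be counted. The 5 with a copy over nearly all of the gene had a median log2 fold change of -1.85, and 4 of them passed. The 5 tested mRNAs without a chromosome 1 copy, mt-Nd1, mt-Nd2, mt-Nd5, mt-Nd6 and mt-Cytb, had a median of -0.63, from -0.66 to -0.37, and 0 of them passed in edgeR, whereas 4 had an unadjusted p under 0.05 and DESeq2 called all 5 lower. Their summed share of gene counts was 2.26%, 2.54% and 1.87% in WT and 1.48%, 1.70% and 1.59% in Dlx2OE, again without overlap. The grouping by copies was made after the values had been seen and has no test of its own.

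Of the 7 chromosome 1 copies, 6 were lower in Dlx2OE with an edgeR adjusted p under 0.05, at log2 fold changes of -2.10 to -1.19. Gm28661, the copy of mt-Co2, had 604, 582 and 512 counts in the WT libraries and 171, 182 and 129 in Dlx2OE, close to the 564, 610, 451, 163, 152 and 124 counts of mt-Co2 itself. mt-Co2 thus held 45.5% to 51.2% of their sum in every library. Gm28437 held about the same counts as mt-Co3, with 45.8% to 51.0% on mt-Co3. For mt-Atp6 and Gm10925 the mitochondrial gene held 28.6% to 34.0% of the sum, and for mt-Nd4l and Gm10222 it held 33.3% to 50.0%. Where a copy covers part of a gene, it was lower by more than the gene. Gm28439 was fitted at -1.78 against -0.81 for mt-Nd4, and Gm29216 at -1.85 against -0.53 for mt-Co1; these differences were not tested. For the 4 pairs above, whose sequences are identical over the aligned bases, the split between gene and copy does not tell which of them was transcribed. Reads that align equally well to both are left out, and what set apart the reads counted here was not determined. The copies on chromosome 2, which differ from the mitochondrial genes at more positions, were also lower: Gm13340, a copy of mt-Co1, at -1.20 against -0.53 for the gene (edgeR adjusted p = 0.0117) and Gm13341, a copy of mt-Co2, at -1.35 (edgeR adjusted p = 0.0467). The other copies, Gm13339 of mt-Nd2 and Gm4076 of mt-Nd5, had 3 to 25 counts and were not tested.

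The pair of mt-Nd3 and Gm28438 did not follow this. Gm28438 had 74, 68 and 56 counts in the WT libraries and 14, 532 and 941 counts in Dlx2OE. mt-Nd3 had 26, 4 and 4 counts in the same Dlx2OE libraries, so it held 40.8% to 47.2% of the sum in WT, 65.0% in Dlx2OE replicate 1, and 0.746% and 0.423% in Dlx2OE replicates 2 and 3. Over their 345 aligned bases, position 3 (T3C) is the base by which reads of this pair can be told apart. On the mitochondrial genome mt-Tg ends directly before mt-Nd3. A read over position 3 that begins before mt-Nd3 therefore also overlaps mt-Tg and is set aside as ambiguous. Gm28438 ends at 24613119, and the copy on that side, Gm28437, starts at 24613189. Reads there can count for Gm28438 alone, so the split and the sum of this pair may not compare like with like. The mitochondrial sequence of each library was not determined here. With the copies' counts added to their genes, the log2 fold change of mt-Nd3 turned from -2.16 to 2.18 (edgeR adjusted p = 0.143), resting on Dlx2OE replicates 2 and 3, while the number of mitochondrial genes passing as lower stayed at 5. The direction of mt-Nd3 is therefore not settled by these counts.

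**Figure D4:**
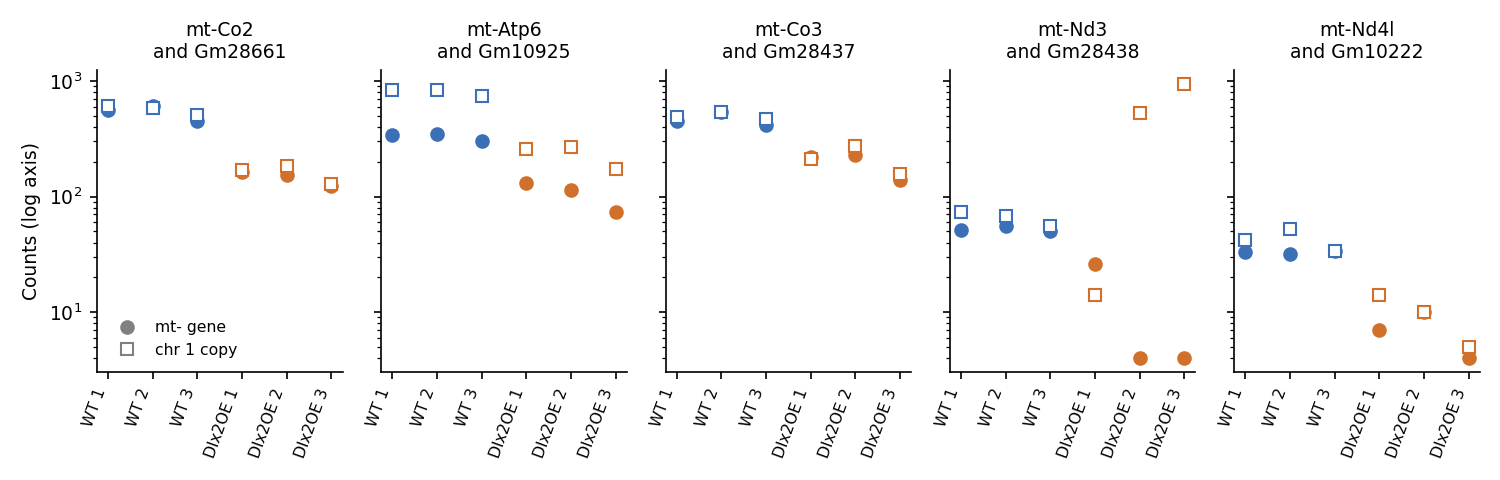
Counts of 5 mitochondrial genes (filled circles) and of their chromosome 1 copies (open squares) in each library, on a log axis. Gene and copy lie near each other for mt-Co2 and mt-Co3. For mt-Nd4l the copy lies at or above the gene, and for mt-Atp6 it lies well above the gene in every library. For mt-Nd3 they lie near each other in WT, but the copy reaches 532 and 941 counts in Dlx2OE replicates 2 and 3 while mt-Nd3 has 4.

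Ratios within the mitochondrial RNA do not depend on its amount. The ratio of rRNA to mRNA counts was 0.0327 ± 0.00360 (SD, n = 3) in WT and 0.0293 ± 0.00643 (SD, n = 3) in Dlx2OE (exact permutation p = 0.5), and that of mt-Rnr2 to mt-Rnr1 was 1.30 ± 0.214 against 1.46 ± 0.139 (SD, n = 3; exact permutation p = 0.3). The ratio of mt-Tp to mRNA counts was 0.00106 ± 0.0000241 against 0.00118 ± 0.000106 (SD, n = 3; exact permutation p = 0.2). That of mt-Nd6 to the forward-strand mRNAs was 0.0146 ± 0.00294 against 0.0134 ± 0.00163 (SD, n = 3; exact permutation p = 0.7). Since reads over mt-Nd6 can come from either strand, this ratio does not compare transcription of the strands. The Benjamini-Hochberg adjusted values over the 4 ratios were 0.6 to 0.7 in these exact permutation tests, which cannot go below 0.1 before adjustment and so could not have passed. The mt-Tp ratio was higher in Dlx2OE by 0.157 on the log2 scale, more than its SD of 0.0949 between libraries. The groups overlapped, with WT replicate 2 at 0.00108 and Dlx2OE replicate 3 at 0.00107. Taken per base of gene length, or without the mRNAs that have any nuclear copy, this difference was 0.170 or 0.195 and reached the smallest exact permutation p of 0.1. Without the 7 mRNAs with a chromosome 1 copy, a setting added once the data had been seen, it was 0.155 (exact permutation p = 0.3).

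The share of each gene in the mRNA counts is a share of the reads that could be counted. Reads that align equally well to a nuclear copy are left out, so these shares are not the composition of the mitochondrial mRNA itself. Within the mRNA counts, mt-Co1 made up 41.8% ± 1.86 (SD, n = 3) in WT and 42.9% ± 1.23 (SD, n = 3) in Dlx2OE, and mt-Cytb 18.4% ± 0.621 and 17.6% ± 0.294 (SD, n = 3). mt-Nd1 held 13.6% and 13.7%, and mt-Nd5 10.65% and 11.97%, with overlap between the groups in all 4 genes. Among the abundant mRNAs, 2 were separated between the groups. mt-Nd2 held 7.09%, 7.15% and 7.12% of the mRNA counts in the WT libraries and 6.63%, 6.74% and 6.92% in Dlx2OE, and mt-Nd4 held 6.30%, 6.96% and 7.27% against 5.84%, 5.45% and 5.94%. Each had an exact permutation p of 0.1, the smallest possible, and 0.186 after Benjamini-Hochberg adjustment over 13 genes, and mt-Nd4 carries a chromosome 1 copy over 63.6% of its length. The 5 genes with a copy over nearly all of their length were also separated, with the same p, and each held at most 0.0416% of the mRNA counts in any library.

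The nuclear genome supplies the proteins that replicate, transcribe and process mitochondrial DNA and RNA. Of a list of 52 such genes, 51 were matched by symbol and 50 were tested, of which 25 were fitted higher and 25 lower. None passed the edgeR test, against 3.46% lower and 2.99% higher of all genes tested. At an unadjusted p under 0.05 there were 14 of the 50, 8 higher and 6 lower, close to the 29.5% of all genes tested. DESeq2 called 1 gene lower, against its 7.21% over all genes. The median log2 fold change was -0.01, from -0.58 to 0.58. By role, the medians were -0.14 over 12 genes of replication and packaging, -0.09 over 10 of transcription, 0.02 over 20 of RNA processing and stability, and 0.12 over 8 regulators of mitochondrial biogenesis, with 0 passing in each.

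Tfam, which packages mitochondrial DNA and starts its transcription, was at 96.8, 82.6 and 79.8 CPM in WT and 78.6, 76.6 and 67.8 CPM in Dlx2OE, just without overlap (-0.22, SE 0.111, edgeR adjusted p = 0.228). Polrmt, the mitochondrial RNA polymerase, was at 35.5 to 40.6 CPM against 39.7 to 43.4 CPM (0.12, SE 0.0996, edgeR adjusted p = 0.431), and its partner in initiation Tfb2m at 28.4 to 35.7 CPM against 25.3 to 30.7 CPM (-0.19, SE 0.132, edgeR adjusted p = 0.361). Lrpprc, which stabilises mitochondrial mRNAs, was at 89.2 CPM ± 8.69 (SD, n = 3) in WT and 106.9 CPM ± 6.41 (SD, n = 3) in Dlx2OE (0.26, SE 0.106, edgeR adjusted p = 0.147). Its partner Slirp stayed at 0.0321 to 0.199 CPM in these counts and was not tested.

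Ppargc1a, a coactivator of mitochondrial biogenesis, was at 6.22, 9.19 and 8.95 CPM in WT and 5.30, 4.97 and 6.06 CPM in Dlx2OE, without overlap (-0.58, SE 0.214, edgeR adjusted p = 0.125). The smallest adjusted p on the list belonged to Hsd17b10, a subunit of the mitochondrial RNase P that cuts the 5′ ends of tRNAs, named here after its value was seen. It was at 167, 160 and 114 CPM in WT and 110, 110 and 91.4 CPM in Dlx2OE (-0.50, SE 0.159, edgeR adjusted p = 0.0886), and it was the gene that DESeq2 called lower (adjusted p = 0.0352).

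**Figure D5:**
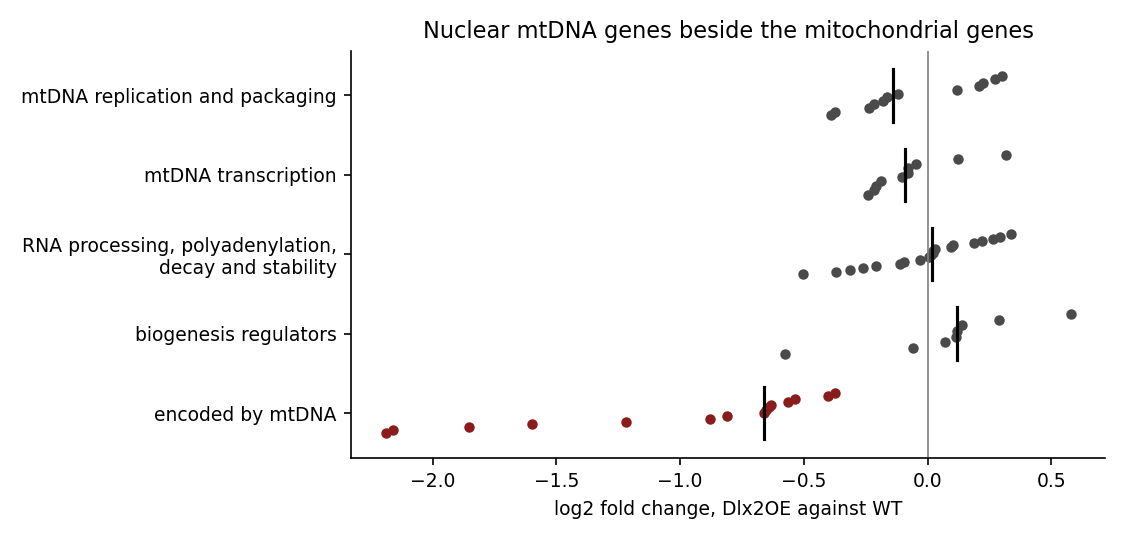
Fitted log2 fold changes, Dlx2OE against WT, of the 50 tested nuclear genes of mitochondrial DNA maintenance and expression in 4 role groups, above the 15 tested genes encoded by mitochondrial DNA. Points are genes and vertical bars are group medians. The nuclear genes lie on both sides of 0, from -0.58 to 0.58, and the mitochondrial genes lie from -2.19 to -0.37.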

How the data were processed

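Per the labels, poly-T purified RNA was made into libraries with the NEBNext Ultra kit and sequenced as 150 bp pairs. The submitters' processing notes list FastQC, STAR 2.7.3a, HTSeq 0.12.4 and build mm10, and the deposited values are raw counts per gene, without normalization. The annotation release and strand setting are not given in the sources used here. Of 53801 gene identifiers, 53620 were matched in GENCODE M21, and the HTSeq summary lines stayed out of library sizes. Counts were fitted in edgeR 4.0.16 (filterByExpr with a minimum count of 10, TMM, genotype alone, 6 libraries) and compared with DESeq2 1.42.0, and levels are CPM on the TMM-scaled sizes. Single values were compared with exact two-sided permutation tests in scipy 1.17.1. Nuclear copies were sought with blastn 2.17.0 among annotated transcripts. Scripts were tested on simulated data. All 13 mRNAs, both rRNAs, each tested tRNA, nuclear copies and a set of regulators were named. The members and lists were chosen with earlier results of these data known.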

Additional observations from a re-analysis of the deposited data

Results flagged for a closer look

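Read pairs on no annotated gene, a summary line outside the gene counts, made up 5.749%, 7.815% and 14.7% of the pairs listed in Dlx2OE replicates 1, 2 and 3, each above the highest WT library at 5.43%. The counts of Gm28438, the chromosome 1 copy of mt-Nd3, were 532 and 941 in Dlx2OE replicates 2 and 3, above the 56 to 74 of the WT libraries, whereas Dlx2OE replicate 1 had 14. Both patterns are highest in Dlx2OE replicate 3, and a link between them was not tested.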

How the results depend on the processing

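All 15 tested genes kept a negative log2 fold change under every alternative in which they were tested, except mt-Nd3 at 2.18 with the chromosome 1 copies added (a setting added once the data had been seen). The number of mitochondrial genes passing as lower, 5 as reported, was 14 with DESeq2, 8 with no filter on low counts, 3 with the length and GC correction plus replicate block, and 1 to 11 with a library left out. With a log2 fold change below -1 also required, 4 became 2 with that correction and block, and 1 to 5 with a library left out. The replicate block alone left both counts at 5 and 4. The study's methods do not pair the samples, so the replicate numbers were not taken as pairs. Deviations of same-numbered WT and Dlx2OE libraries from their group means correlated at -0.0718, -0.211 and 0.0731. Those of differently numbered libraries correlated at -0.204 to 0.345, and so few values cannot decide whether the samples were paired. The nuclear list had 1 gene lower with DESeq2 and 1 with no filter, and 0 to 3 with a library left out (3 without WT replicate 3). Its median of -0.01 was 0.0033 with DESeq2, 0.054 with library size alone, and -0.065 to 0.035 with a library left out. The median of the mRNAs without a chromosome 1 copy ran from -0.74 to -0.48 with a library left out. The log2 ratio of mt-Nd6 to the forward-strand mRNAs ran from -0.279 to 0.0103, and the log2 shares in the mRNA counts from -0.0104 to 0.027 for mt-Nd1, -0.548 to 0.129 for mt-Atp8 and -0.275 to 0.0103 for mt-Nd6. The causes were not tested. The exact tests on shares and ratios could not pass 0.05 under any setting, so their p-values say nothing about stability. The data are limited by groups of 3, by reads aligned to several places and by ambiguous reads over the tRNAs.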
